A study of Rattus norvegicus with 5 samples.

Results

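Metalloproteinases and their tissue inhibitors were followed in rat lung exposed to EHC-93, an urban particulate dust. The genes were chosen by name: the matrix metalloproteinases Mmp12, Mmp2, Mmp9 and Mmp14 and the inhibitors Timp1, Timp2 and Timp3. All probe sets that the platform annotation gives to these 7 genes were taken, which makes 9 of the 8740 probe sets that are not controls. Mmp2 and Timp1 have 2 probe sets each, and the 2 of Timp1 were made from the same expressed sequence tag, so they share their target and are not independent readings.

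Lung RNA was measured on 5 one-colour oligonucleotide arrays, 1 per group and each hybridised with a pool. The 3 dust pools came from animals given EHC-93 into the trachea and sampled after 2, 4 and 6 h (early), 15, 18 and 21 h (intermediate) or 24, 32 and 40 h (late). The sham pool came from animals given saline and sampled after 2, 15 and 24 h, so no sham array matches a dust phase in time, and the untreated pool came from 3 rats with no instillation. Strain, sex, age, dust dose and the number of animals behind the instilled pools are not stated by the labels. Each group is 1 array, so a fold from one array to another is without replicates and has no error, and the number of arrays limits the precision.

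Matrix metalloproteinases are zinc enzymes that cut extracellular matrix proteins. Most are secreted as inactive precursors, and some, such as Mmp14, sit in the cell membrane. Tissue inhibitors of metalloproteinases (Timp) bind the active site of these enzymes. In lung, Mmp12 is the elastase of macrophages, while Timp1 is known as an inducible inhibitor and Timp2 and Timp3 are made by many resident cells. Since RNA of whole lung was measured, more cells of a type and more RNA per cell cannot be told apart.

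Mmp12 and Timp1 read higher on all 3 dust arrays than on both arrays without dust, and Mmp2, Mmp9, Mmp14, Timp2 and Timp3 did not. Mmp12 was lowest on the early and highest on the late dust array, whereas Timp1 was lower on the late array than on the other dust arrays. The 2 genes therefore had different orders over the phases, read from 1 array per phase. Late Mmp12 was 2.16-fold its early value, while early Timp1 was 1.30-fold and 1.47-fold its late value on its 2 probe sets. No phase of either gene was at least 2-fold above or below both other phases. All values below are deposited intensities scaled so that the arrays have the same median. Values under 172.53, the 40th percentile of all scaled values, were set to that floor before a fold or log2 difference was taken. A probe set was called higher or lower on a dust array where its value differed 2-fold or more from that in sham and also from that in untreated lung.

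The RefSeq promoter windows of these 2 genes are shown because theirs are the genes with calls, and each ends at the base before the annotated start. The Mmp12 window lies at chr8:12866402-12866651 on the plus strand of GRCr8 and the Timp1 window at chrX:3771123-3771372 on the minus strand. Capitals mark matches, on either strand, to an AP-1 element (TGANTCA), an AP-1-like element (TGAGTAA), an Ets element (AGGAAG) or a TATA box (TATAAA).
Mmp12: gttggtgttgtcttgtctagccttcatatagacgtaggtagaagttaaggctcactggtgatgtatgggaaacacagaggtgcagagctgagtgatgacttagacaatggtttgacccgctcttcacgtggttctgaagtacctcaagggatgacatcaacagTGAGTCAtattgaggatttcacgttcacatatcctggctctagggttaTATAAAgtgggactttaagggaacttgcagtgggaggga
Timp1: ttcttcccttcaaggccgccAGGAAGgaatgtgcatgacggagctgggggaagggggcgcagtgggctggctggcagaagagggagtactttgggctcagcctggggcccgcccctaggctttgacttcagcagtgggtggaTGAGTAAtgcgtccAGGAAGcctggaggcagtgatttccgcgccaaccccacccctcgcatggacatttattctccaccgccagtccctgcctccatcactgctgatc
AP-1 is the transcription factor formed by Fos and Jun proteins. The Mmp12 window held the AP-1 element TGAGTCA at 87 to 81 bases before the start and a TATA box at 39 to 34 bases before it. The Timp1 window held the AP-1-like element at 108 to 102 bases before the start, with an Ets element at 94 to 89 bases and another at 230 to 225 bases before it. Of 33469 promoter windows of this length, 6.34% held the AP-1 element, 2.38% the AP-1-like element, 29.5% the Ets element and 12.9% the TATA box. The windows of Timp2 and Timp3 held none of these letters, and their share of G and C was 72.0% and 69.6%, against 45.6% for Mmp12 and 61.2% for Timp1. The matches do not overlap each other, the motifs were chosen with the windows in view, and a match is a description of letters. Mmp2, Mmp9 and Mmp14 had no window in the table used.

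Mmp12, the macrophage elastase (X98517_at), read 381 early, 749 at the intermediate phase and 822 late, against 119 in sham and 190 in untreated lung. The sham value lay under the floor and the untreated value just above it, so the arrays without dust were dim and the dust arrays did not overlap them. In early dust lung the fold of Mmp12 was at least 2.21 over sham and 2.01 over untreated lung. On the intermediate array it was at least 4.34 over sham and 3.94 over untreated lung, and on the late array at least 4.76 and a measured 4.33. Among the 6188 probe sets above the floor on at least 1 array, ordered by the smaller of the differences from the 2 arrays without dust, Mmp12 held place 195 early, place 5 at the intermediate phase and place 2 late. The early call depends on the scaling: the fold over untreated lung was 1.92 without scaling, 1.92 when arrays were set to one 75th percentile and 1.94 with quantile normalization, so the call was lost under each. With the floor at the 60th percentile Mmp12 was called on none of the dust arrays: its intermediate and late folds were then at least 1.64 and 1.80 over both arrays without dust, and its early value was itself at the floor. Between phases, the late value was 2.16-fold and the intermediate value 1.97-fold the early one, while late and intermediate differed 1.10-fold.

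**Figure D1:**
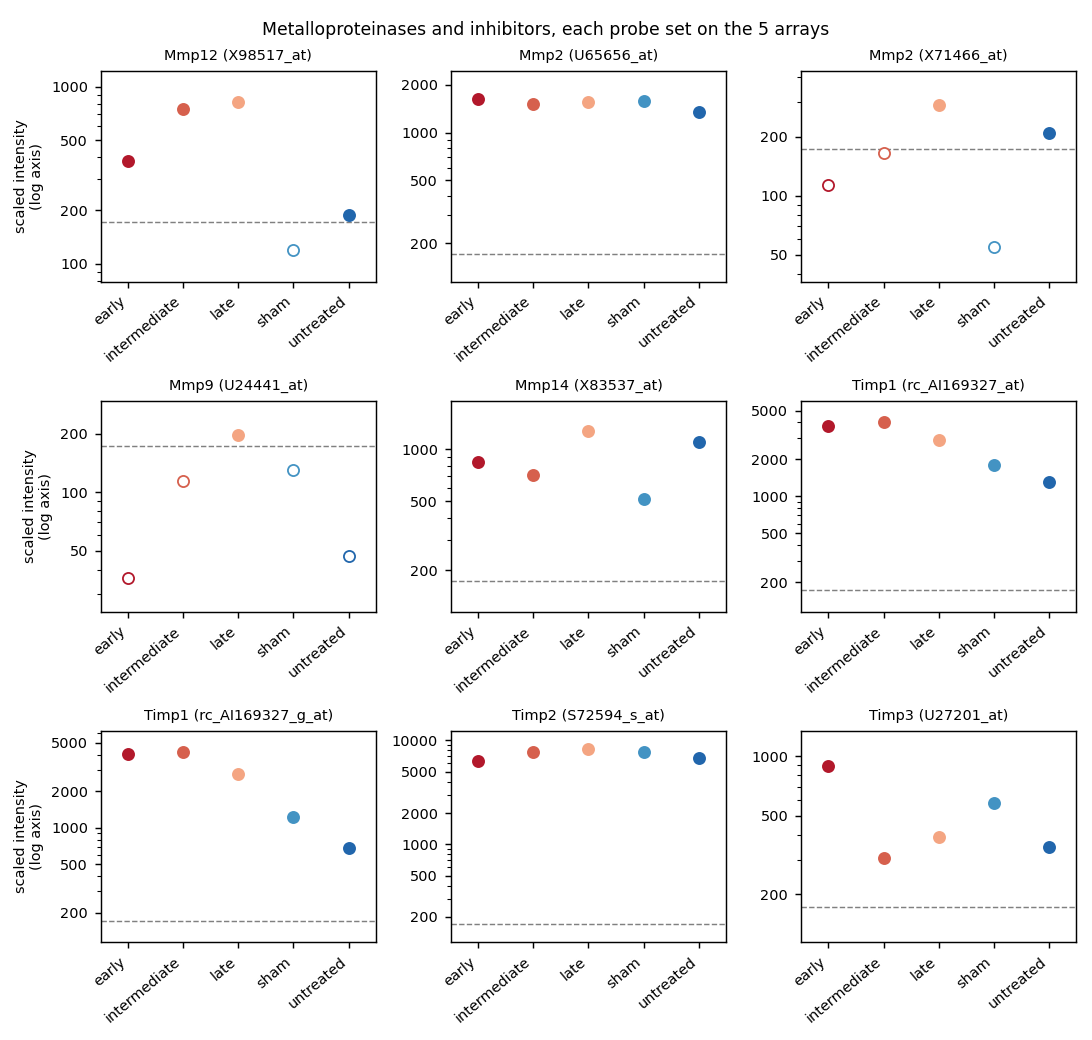
Scaled intensity (log axis) of each of the 9 probe sets on the 5 arrays, 1 point per array, with a panel per probe set. Open circles lie under the floor of 172.53 (dashed line). Mmp12 and both Timp1 probe sets are above the sham and untreated arrays on all 3 dust arrays, and the other panels show overlap.

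The gelatinases Mmp2 and Mmp9 degrade denatured collagen and basement membrane collagen. The brighter Mmp2 probe set (U65656_at) read 1637, 1524 and 1567 in early, intermediate and late dust lung, against 1579 in sham and 1349 in untreated lung. These 5 values spanned 1.21-fold, the smallest span among the 6 probe sets above the floor on all arrays, and the sham value lay inside the range of the dust arrays. The second Mmp2 probe set (X71466_at) read 114 early, 165 at the intermediate phase and 289 late, against 54.7 in sham and 208 in untreated lung, so only the late and untreated arrays were above the floor. Mmp9 (U24441_at), which neutrophils store in granules, read 36.4, 115 and 197 in early, intermediate and late dust lung, against 130 in sham and 46.9 in untreated lung. Only the late value was above the floor, at least 1.14-fold over both arrays without dust, and the probe set entered the test only through that array. At this signal a fall of Mmp9, or a rise that stayed under the floor, was not detectable on the early and intermediate arrays.

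Mmp14, a membrane-bound collagenase that activates the Mmp2 precursor together with Timp2, read 844 early, 710 at the intermediate phase and 1273 late, against 517 in sham and 1108 in untreated lung. The sham array was the lowest and the late array the highest, and the dust arrays lay on both sides of the untreated array. The late value was 2.46-fold above sham but 1.15-fold above untreated, so no phase was called. The early and intermediate arrays were 1.63-fold and 1.37-fold above sham and at the same time at log2 differences of -0.39 and -0.64 from untreated. Between the 2 arrays without dust, the log2 difference of sham from untreated was -1.10, the only such call among the 9 probe sets, while 1.92% of probe sets tested were at least 2-fold lower and 1.66% at least 2-fold higher in sham. A direction for Mmp14 against no dust thus turns with the array it is set against.

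Timp1 was read by 2 probe sets that agreed in order and differed in size. The first (rc_AI169327_at) read 3734, 3997 and 2880 in early, intermediate and late dust lung, against 1803 in sham and 1301 in untreated lung. The second (rc_AI169327_g_at) read 4050, 4161 and 2751 on the same dust arrays, against 1222 in sham and 679 in untreated lung. On both, the early and intermediate arrays were highest, the late array was next and the untreated array was lowest, with no overlap between arrays with and without dust.

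On the early array the first Timp1 probe set had folds of 2.07 over sham and 2.87 over untreated lung, and the second 3.32 and 5.96. On the intermediate array the folds were 2.22 and 3.07 for the first probe set and 3.41 and 6.12 for the second. On the late array they were 1.60 and 2.21 for the first, which therefore was not called, and 2.25 and 4.05 for the second. The second probe set held place 44 early, place 7 at the intermediate phase and place 21 late in the order of 6188 probe sets. It was called on all 3 dust arrays with each of the other scalings, while the first probe set was called on none of the dust arrays with any of them. Sham was itself 1.39-fold and 1.80-fold above untreated on the 2 probe sets, below the 2-fold rule.

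Timp2, the inhibitor that bridges Mmp14 and the Mmp2 precursor (S72594_s_at), read 6286, 7779 and 8203 in early, intermediate and late dust lung, against 7763 in sham and 6729 in untreated lung. The 5 values spanned 1.30-fold and the groups overlapped.

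Timp3, an inhibitor that is bound to the matrix, read 892 early, 307 at the intermediate phase and 389 late (U27201_at), against 581 in sham and 349 in untreated lung. Of the 5 arrays, early dust had the highest value and intermediate dust the lowest. Early was 1.54-fold above sham and 2.56-fold above untreated, which is no call. Against the later dust arrays it was 2.91-fold above intermediate and 2.29-fold above late, the only one of the 9 probe sets at least 2-fold above or below both other phases. On the early array 2.57% of probe sets tested were that much higher and 0.711% lower than on both other phases; on the intermediate array these shares were 0.436% and 0.356%, and on the late array 0.21% and 1.05%. On the intermediate and late arrays the log2 difference of Timp3 from sham was -0.92 and -0.58. The arrays also differed in RNA completeness, read as the 5′ signal of a control transcript in percent of its 3′ signal: for GAPDH it was 67.2%, 23.6% and 38.1% in early, intermediate and late dust lung, against 25.4% on sham and 39.1% on untreated. Timp3 was highest on the array with the highest ratio and lowest on that with the lowest, but was higher on sham than on the late and untreated arrays, which had higher ratios than sham. The part of this ratio in the Timp3 values was not tested.

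In counts, 3 of the 9 probe sets were called higher on the early array, where 3.17% of all 6188 probe sets tested were. On the intermediate array 3 of 9 were called higher, against a background of 0.824%, and on the late array 2 of 9, against 0.566%. None of the 9 was called lower on any dust array, where 0.452% of all probe sets were lower early, 0.339% at the intermediate phase and 0.953% late. The calls come from 2 genes, Mmp12 and Timp1, whose results were known when the genes were chosen, so the counts are descriptions. Of the calls made on the intermediate array among all probe sets tested, 70.8% were higher ones. This share was 42.9% without scaling, 51.4% at one 75th percentile and 55.2% with quantile normalization. On the late array the share was 37.2%, and 23.5% without scaling. Over the 3 phases, 10 of 6188 probe sets (0.162%) were called higher on every dust array, and 2 of them were those of Mmp12 and the second Timp1 probe set.

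**Figure D2:**
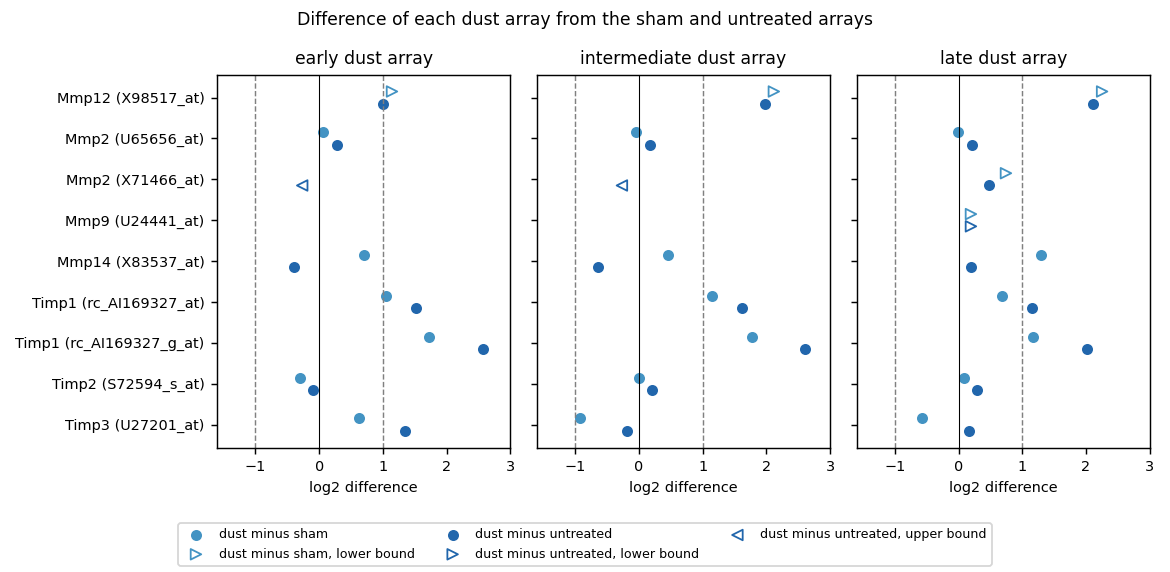
Log2 difference of each dust array from the sham array (light blue) and from the untreated array (dark blue) for the 9 probe sets, in a panel per phase. Triangles are bounds, where 1 of the 2 values was at the floor, and pairs with both at the floor are not drawn. Dashed lines mark 2-fold; Mmp12 and the second Timp1 probe set are past the upper line against both arrays in all 3 panels, with Mmp12 close to it on the early array.

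Dust was also compared with no dust as an average, the only comparison with more than 1 array per side. The limma test was fitted to all 6188 probe sets with 3 dust arrays against 2 without, so that differences between phases and between sham and untreated count as error. Mmp12 was 1.77 higher on the log2 scale (SE 0.37, 95% interval 0.82 to 2.71, limma adjusted p = 0.644). The 2 Timp1 probe sets were 1.19 higher (SE 0.23, interval 0.61 to 1.78, limma adjusted p = 0.644) and 1.98 higher (SE 0.33, interval 1.13 to 2.83, limma adjusted p = 0.644). For Mmp12 this average holds the sham value at the floor. All 3 dust arrays were above both others for these 3 probe sets, as for 13.5% of all probe sets tested, and none of the 9 had all dust arrays below, against 6.12%.

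After Benjamini-Hochberg adjustment limma called 0 of 6188 probe sets at 0.05, a background of 0%, and the smallest adjusted p was 0.302. At an unadjusted p under 0.05 it held 428 probe sets, 6.92% (4.7% higher and 2.21% lower), and 3 of the 9, all higher. By size of the average difference the second Timp1 probe set held place 9, Mmp12 place 17 and the first Timp1 probe set place 39 from the top. The other 6 probe sets had average differences from 0.03 (Timp2, 95% interval -0.42 to 0.48) to 0.27 (Mmp14, interval -0.80 to 1.34). The interval of Timp3 was wide, -1.26 to 1.41 around 0.07, and that of the brighter Mmp2 probe set narrow, -0.24 to 0.46 around 0.11. The median of the 9 differences was 0.11, against 0.06 over all probe sets tested.

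**Figure D3:**
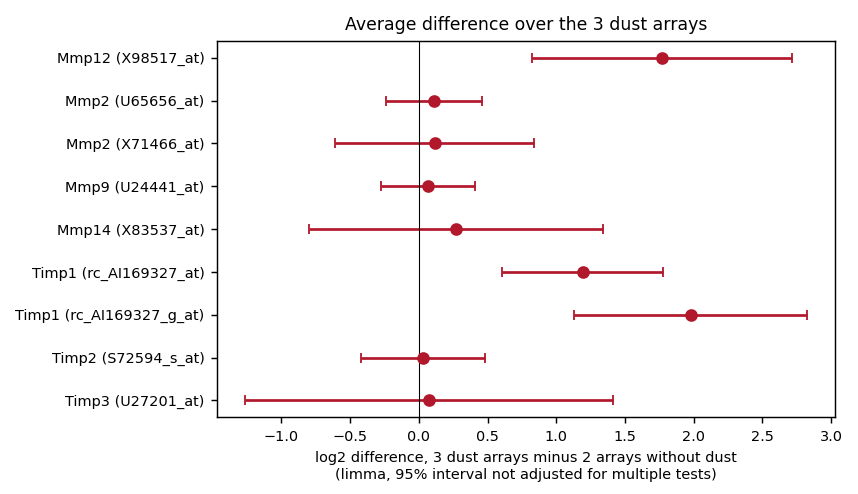
Average log2 difference of the 3 dust arrays from the 2 arrays without dust for each of the 9 probe sets (points), with the 95% limma interval (bars), which is not adjusted for the 6188 tests. The intervals of Mmp12 and of both Timp1 probe sets lie above 0 and those of the other 6 include 0.

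Mmp12 lies in a run of 10 metalloproteinase genes that follow each other on rat chromosome 8, and 5 of its neighbours in that run were on the array. Mmp3, Mmp8 and Mmp13 were under the floor on all 5 arrays. Mmp7, an epithelial enzyme, read 187 early, 265 at the intermediate phase and 164 late, the last under the floor, against 197 on the sham array and 102, also under it, on the untreated array. Mmp10, a stromelysin, was above the floor on the sham array alone, at 300.1, and between 26.7 and 38.5 on the other 4 arrays. None of these neighbours was called higher or lower on a dust array.

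Outside the run, Mmp11, another stromelysin, read 239, 498 and 429 in early, intermediate and late dust lung, against 264 in sham and 374 in untreated lung, so the groups overlapped. Mmp16, a membrane-bound enzyme, was above the floor on the intermediate array alone, at 242. Mmp23 read between 203 and 315 on the dust arrays, against 256 in sham and 321 in untreated lung. Of the 8 other metalloproteinase probe sets 5 were tested, and 0 of them were called in either direction on any phase.

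**Figure D4:**
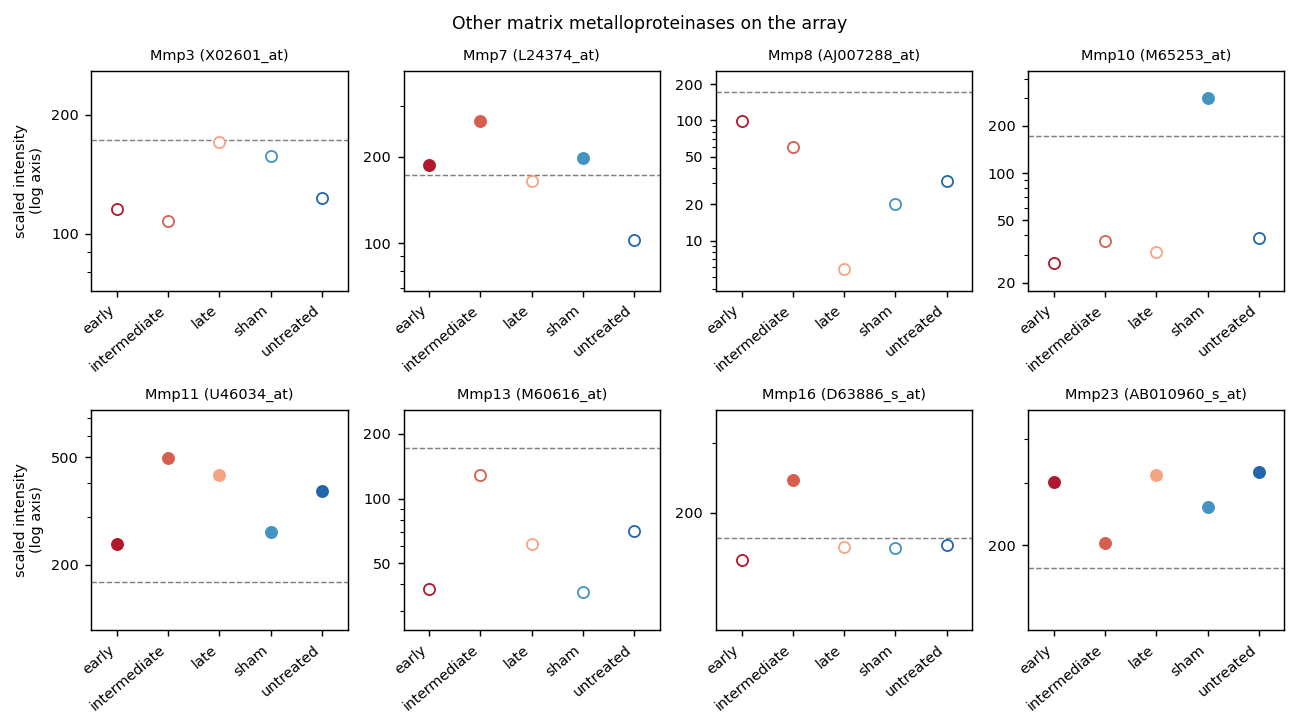
Scaled intensity (log axis) of the 8 other matrix metalloproteinase probe sets on the 5 arrays, 1 point per array. Open circles lie under the floor of 172.53 (dashed line). Mmp3, Mmp8 and Mmp13 stay under the floor on every array, and Mmp10 passes it on the sham array alone.

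The genes that act around metalloproteinases were counted by lists, in probe sets that passed the floor somewhere among the 5 arrays. Of all 6188 probe sets tested, 3.17%, 0.824% and 0.566% were called higher on the early, intermediate and late array, and 0.452%, 0.339% and 0.953% lower. Of 5 probe sets of ADAM and ADAMTS proteases, which shed membrane proteins or cut proteoglycans, none was called on any phase. Adam17, which releases tumour necrosis factor from the cell surface, read 683, 228 and 333 in early, intermediate and late dust lung, against 181 in sham and 426 in untreated lung; its early value was 3.77-fold above sham and 1.60-fold above untreated. Among 13 probe sets of other inhibitors and binding partners none was called. They included Cd63, a surface partner of Timp1, at 11811, 14277 and 12896 on the dust arrays, against 10614 in sham and 8955 in untreated lung, and the hyaluronan receptor Cd44, by 1 of its 4 probe sets (M61875_s_at), at 1374, 1210 and 1219, against 859 and 1041. Cd63 and this Cd44 probe set had all 3 dust arrays above the others, as 13.5% of all probe sets did. Pcolce, of the same list, read 721, 945 and 1009, against 555 in sham and 782 in untreated lung, so its arrays overlapped. The median average difference of this list was 0.03, against 0.06 over all probe sets tested.

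In the plasminogen system, whose protease plasmin can activate metalloproteinase precursors, 1 of 9 probe sets was called higher on the early array and none on the later ones. It was the urokinase receptor Plaur, at 2806, 837 and 1173 on the dust arrays, against 1009 in sham and 578 in untreated lung. Urokinase itself, Plau, read 772, 589 and 782, against 589 and 541. Among 29 probe sets of matrix substrates, 1 of 2 biglycan (Bgn) probe sets was called higher and 1 of 4 decorin (Dcn) probe sets lower on the early array, and osteopontin (Spp1), which metalloproteinases can cut, was called higher on the late array, at 1799 against 660 in sham and 463 in untreated lung. The median log2 differences from the mean of the arrays without dust were 0.15, -0.10 and 0.01 for the substrates in early, intermediate and late dust lung, against 0, 0.07 and 0.05 over all probe sets tested.

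Cytokines and growth factors that act on metalloproteinase genes were called higher in 8 of 22 probe sets early, 3 at the intermediate phase and 1 late, and lower in 0, 1 and 1, where the shares of all probe sets called higher were 3.17%, 0.824% and 0.566%, and lower 0.452%, 0.339% and 0.953%. Several of these probe sets read the same gene. The interleukin Il1b, an inducer of metalloproteinases (M98820_g_at), read 2379, 1141 and 889 in early, intermediate and late dust lung, against 376 in sham and 384 in untreated lung, and was called on each phase. A brighter Il1b probe set (M98820_at) read 4479, 3451 and 2057, against 1131 in sham and 692 in untreated lung. It was not called on the late array. Il6 (M26744_at) reached 1004 and the epidermal growth factor receptor ligand Areg 1068 on the early array, and this Il6 probe set was under the floor on all other arrays. The list's median log2 difference was 0.53 early, 0.02 at the intermediate phase and 0 late.

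Transcription factors that bind metalloproteinase promoters had 10 of 28 probe sets called higher on the early array and 0 on the intermediate and late arrays, against 3.17%, 0.824% and 0.566% of all probe sets, with medians of 0.74, 0.03 and 0.03. The 28 probe sets cover 14 genes, so several read the same gene. Fosl1, an AP-1 subunit, read 1162 on the early array and was under the floor on the other 4, at least 6.74-fold above sham and untreated. Junb, another AP-1 subunit, read 3531 against 1059 in sham and 1243 in untreated lung (rc_AA891041_at). Cebpd read 2187 against 394 and 262 (rc_AI045030_s_at). These calls fell on the early array, where Mmp12 was at its lowest among the dust arrays and Timp1 was near its highest. The early array also had the highest 5′ signal in percent of 3′ signal, for GAPDH 67.2% against 23.6% to 39.1% on the other 4 arrays and for beta-actin 43.1% against 9.07% to 24.4%. The part of RNA completeness in the early calls of both lists was not tested. On the late array, where Mmp12 was highest, none of the 28 probe sets was called. The part of these factors in the Mmp12 and Timp1 values was not tested.

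The 3 genes with the most similar profile were found for each member with a span of at least 2-fold, as the root mean square distance between log2 profiles centred over the 5 arrays, among 675 genes with such a span. For Mmp12 they were the peptidylarginine deiminase Padi4 (distance 0.40), the Fc receptor Fcgr2b (0.42) and Spp1 (0.45). Fcgr2b read 925, 963 and 1417 in early, intermediate and late dust lung, against 367 in sham and 564 in untreated lung. Padi4 read 957, 1432 and 990, against 413 and 458.

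For the first Timp1 probe set the nearest were the calcium-binding protein S100a9 (0.10), the nucleotide receptor P2ry2 (0.16) and the pterin enzyme Gch1 (0.19), and for the second Il1b (0.20, by another probe set, M98820_at), the nitric oxide synthase Nos2 (0.28) and the complement regulator C4bpa (0.40). S100a9 read 2850, 2737 and 1841 on the dust arrays, against 1339 in sham and 980 in untreated lung, the same order as Timp1 apart from the first 2 phases. The nearest genes of Timp3 were the kinase Lyn (0.09), the GTPase Rhoa (0.16) and the growth factor Hbegf (0.19), each highest on the early array. Those of Mmp14 were Nkx2-5 (0.15), Glg1 (0.18) and Ptpn18 (0.18), each lowest on sham. The distances are descriptions over 5 arrays.

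**Figure D5:**
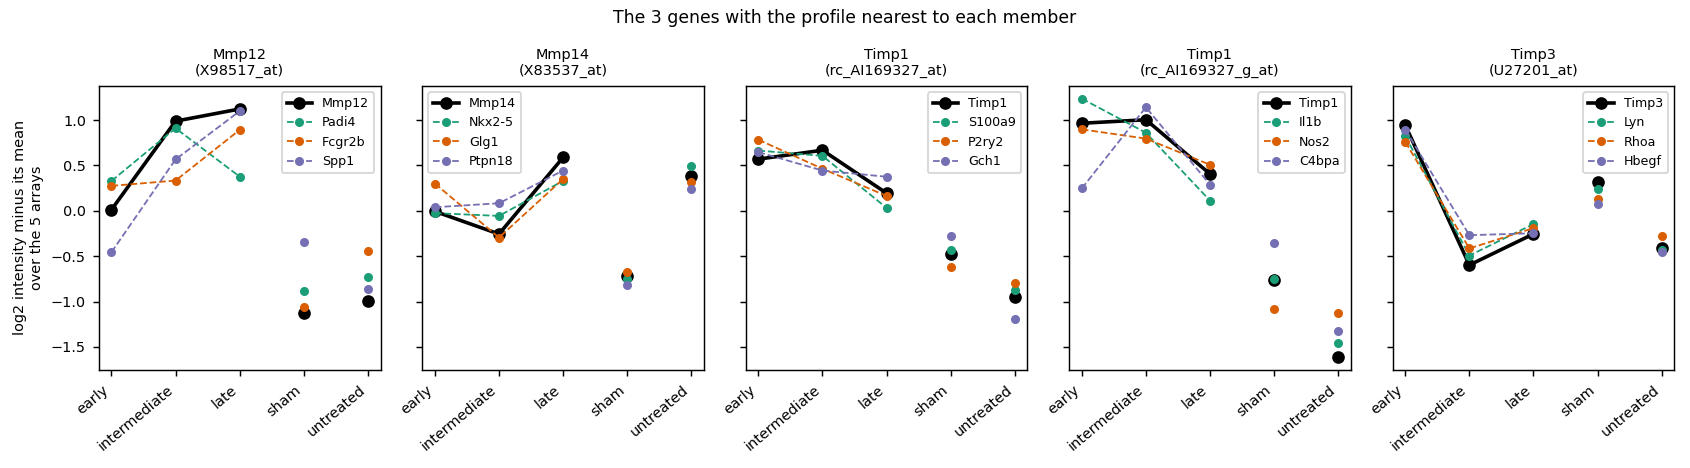
Log2 intensity, floored and centred on its mean over the 5 arrays, of the members with a span of at least 2-fold (black) and of the 3 genes with the nearest profile (colours), 1 point per array. Lines join the 3 dust phases only. Mmp12 is highest on the late array and Timp3 on the early array. Timp1 is highest on the intermediate array by both probe sets, at only 1.07-fold and 1.03-fold its early value. Without scaling, the second Timp1 probe set is highest on the early array.

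Neutrophil marker sums were higher on all 3 dust arrays, as Mmp12 and Timp1 were. The macrophage sum was higher on the intermediate and late arrays only, while the median macrophage difference was above 0 on all 3. Of 14 neutrophil markers 6 genes were on the array and 4 were above the floor on some array, while Mmp8 and Cxcr2 were under it on all 5. Their summed intensity was 36910, 54488 and 41794 in early, intermediate and late dust lung, against 22901 in sham and 7953 in untreated lung, mostly from Lcn2, which epithelium also makes. Called higher were 3 of the 4 early, 3 at the intermediate phase and 1 late, against 3.17%, 0.824% and 0.566% of all probe sets. Of 14 macrophage markers 7 were on the array and 5 above the floor, with Itgam and Csf1r under it on all arrays. Their sum, mostly from Lyz2, was 48342, 67912 and 67824 on the dust arrays, against 54788 in sham and 50349 in untreated lung, and Cd14 was called higher on the early array and Fcgr2b and Ctsk on the late array. The median log2 difference of the 6 macrophage probe sets tested was 0.49 early, 0.34 at the intermediate phase and 0.45 late. Over all probe sets tested it was 0, 0.07 and 0.05. Fibroblast markers summed to 47350, 48244 and 51832, against 46351 and 54611. The part of such cells in the Mmp12 and Timp1 values was not tested. The 4 alveolar type 2 genes on the array were above the floor on all 5 arrays, Sftpc at 48084 to 71970 on the dust arrays against 55179 in sham and 53586 in untreated lung, as lung tissue has.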

How the data were processed

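The deposited table holds linear intensities of 8799 probe sets on 5 arrays. The authors' algorithm and any scaling of these intensities, not given in the sources used here, remain unknown. The 59 control probe sets were left out. Values were scaled to a common median (factors 0.931 to 1.07), floored at the 40th percentile (172.53) and taken to log2, and 6188 probe sets above the floor on at least 1 array were tested. The platform annotation gave 1 gene symbol to 7006 probe sets, several to 308 and none to 1426; all member genes were matched by identifier to RefSeq (GRCr8), which also gave the promoter windows for 4 of the 7 genes. Each dust array was compared by the 2-fold rule with no test, and dust with no dust by limma 3.58.1 (R 4.3.3, two-sided, Benjamini-Hochberg adjustment over all probe sets, threshold 0.05). Pools within a side differ in time or handling, so p-values reflect only how these 5 arrays vary. The steps were also run on simulated data, with the same change on all 3 dust arrays and only in probe sets well above the floor. That setting does not cover a probe set as dim without dust as Mmp12. The members, the 7 gene lists, the marker lists and the tests were chosen with earlier results of these data known. Of the lists, up to 3 genes each could be named: those called on most dust arrays, then those with the largest limma difference; all members are described, and Lyz2, the other metalloproteinases and markers listed under the floor were named after their values were seen. Alternatives were 3 other scalings, 2 other floors, 2 other fold thresholds, either array without dust alone, no filter, 1 probe set per gene, and leaving out each array.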

Additional observations from a re-analysis of the deposited data

How the results depend on the processing

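The number of member probe sets called on the early array, 3, was 1 without scaling, at one 75th percentile, with quantile normalization and at a fold threshold of 3; all 4 lose Mmp12 and the first Timp1 probe set. On the late array it was 1 instead of 2 with the floor at the 60th percentile and at a threshold of 3. The other 21 of 27 alternative counts of member calls stayed within 1.5 times, though at the 60th percentile floor Mmp12 lost its call on all 3 dust arrays. Limma called 0 probe sets under 11 of 12 alternatives and 3, none of them a member, with no filter on low values. Mmp12 stayed positive in all 12 alternatives (0.52 to 2.12, adjusted p 0.396 to 0.819), as did the first Timp1 probe set (0.96 to 1.43, 0.387 to 0.793) and the second in its 11 (1.56 to 2.40, 0.308 to 0.793). The lowest Mmp12 value, 0.52, came with the floor at the 60th percentile, which raises both arrays without dust and the early array to the floor. With 1 array left out, a positive sign for Mmp12 and both Timp1 probe sets was fixed in advance. All their dust arrays were above both arrays without dust. Directions of small differences turned: Mmp2 (U65656_at) was -0.015 without scaling and -0.018 with quantile normalization, Timp2 was -0.10, -0.071 and -0.12 with unscaled, 75th percentile and quantile values, and Timp3 -0.050 and -0.026 with the first 2 of these. Leaving out 1 array at a time gave 1.56 to 2.12 for Mmp12, 0.96 to 1.43 and 1.56 to 2.40 for Timp1, -0.28 to 0.82 for Mmp14 (negative without sham), -0.38 to 0.44 for Timp3 (negative without early or untreated), -0.074 to 0.14 for Timp2 (negative without intermediate, late or untreated), -0.0036 to 0.22 (negative without untreated) and -0.13 to 0.25 (negative without late or sham) for Mmp2, and 0 to 0.10 for Mmp9, whose value was 0 without the late array. Of 84 list medians 82 moved by less than the typical spread of a single probe set between arrays, which is wide for a median. That of the cytokine list, 0.34, was 0 with no filter and 0.0062 to 0.45 with 1 array left out, lowest without the early array. The transcription factor median, 0.25, was 0.036 without the early array. Small medians changed sign. That of ADAM proteases, -0.0098, was 0.21 without sham, and that of matrix substrates, 0.022, was -0.13 with quantile normalization. Of 189 counts of list calls 36 moved by more than 1.5 times: at a threshold of 3 the early calls were 4 instead of 10 for transcription factors and 5 instead of 8 for cytokines, whose late calls in either direction were 0 instead of 2 there and at the 60th percentile floor. Causes were not tested. No paired analysis was possible because each group has 1 array. Where sham (Mmp12) or both arrays without dust (Mmp9) were under the floor, the folds over them are bounds.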

Other observations

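Markers of other lung cells were described in the same way, with no test. Of all 6188 probe sets tested, 3.17%, 0.824% and 0.566% were called higher on the early, intermediate and late array, and 0.452%, 0.339% and 0.953% lower. Of 5 alveolar type 1 probe sets, that of the caveolar protein Cav1 was called higher on the early array, at 2655. It read 808 in sham and 783 in untreated lung. On the intermediate array Cav1 was called lower, at 317. The other 4 probe sets were called on neither. RNA completeness differed between these arrays too. The GAPDH 5′ signal was 67.2% of its 3′ signal in early and 23.6% in intermediate dust lung. In sham it was 25.4% and in untreated lung 39.1%. The part of this ratio in the Cav1 calls was not tested. Among 8 smooth muscle probe sets 2, both of the actin Acta2, were called higher on the early array, and the 10 probe sets of that list on the array cover 5 genes. None of the 4 endothelial and 3 club and ciliated probe sets above the floor was called on a dust array; the club cell cytochrome Cyp2f4 read 842, 605 and 818 in early, intermediate and late dust lung, against 940 in sham and 2643 in untreated lung. The 6 alveolar type 2 probe sets were not called either. Among 13 fibroblast probe sets, 1 of the 4 of decorin (Dcn) was the only call, lower on the early array at 1933, against 3974 in sham and 6012 in untreated lung (X59859_i_at).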
